A study of Homo sapiens with 6 samples.

Results

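A subset of human introns carried reads across the 5′ boundary, where the upstream exon meets the intron, and few or no reads across the 3′ boundary, where the intron meets the downstream exon. Of 241593 introns listed for K562 cells, 2080 (0.861%) had at least 200 reads across the 5′ boundary summed over 6 libraries, at least 4 times as many as across the 3′ boundary, and a mean of at least 20 spliced reads per library. They made up 1.60% of the 129887 introns with that mean of spliced reads. A spliced read joins the exons on either side of the intron. The members were chosen by these read sums, so their high 5′ counts and their 5′ to 3′ ratio are a description and no finding. The 2080 introns began at 1967 different 5′ splice sites, since 218 of them shared 105 sites, and a shared site carried the same 5′ reads for each intron. The RefSeq gene table named 2022 of them, in 1596 genes. Another 58 lay in no named gene along their whole length.

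K562 is an established human leukaemia line of erythroid and myeloid character, and the labels name no clone or passage. The cells were given a control shRNA (Con_sh), a first shRNA against ZRSR2 (ZRSR2_sh1, called sh1 below) or a second shRNA against ZRSR2 (ZRSR2_sh2, called sh2), and each group held 2 libraries, numbered by the experiment. All cells therefore carried an shRNA. Libraries were made from polyA-selected RNA and held 82986327 to 101120454 spliced reads counted over the listed introns. ZRSR2 spliced reads in CPM, which scales each library's spliced reads to a common total, were 28.6 and 23.6 in the control libraries, 10.9 and 10.7 with sh1, and 10.6 and 12.7 with sh2, so that the target was lower in each of the 4 knockdown libraries. All 11 erythroid and BCR-ABL marker genes had spliced reads in every library. Lymphoid markers summed to 29.7 to 83.2 CPM of spliced reads, and epithelial or stromal markers to 91.1 to 128, of which EPCAM gave 79.5 to 114, while KRT5 had no read in 5 of the 6 libraries. At 133 of the 1967 sites (6.76%) a RefSeq gene lies on the opposite strand, and reads of the partners cannot be told apart.

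Splicing starts when the U1 particle pairs with the 5′ splice site, and it ends with the joining of the exons and the release of the intron. RNA that crosses a 5′ boundary without being spliced can come from introns not yet removed, from introns kept in the finished RNA, or from transcripts that end inside the intron at an intronic polyadenylation site. U1 and cyclin-dependent kinase complexes of transcription elongation are known to keep such early ends low. ZRSR2 is a protein of the minor spliceosome that recognises the 3′ splice site of U12-type introns, a rare class in human genes.

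The 5′ splice sites themselves could be read for the few introns that begin inside a 300-base promoter window of the RefSeq table (GRCh38.p14), which covered 34 of the 1967 sites. They are shown because the 5′ splice site is the boundary at which these introns carried their reads. Each window ran from 250 bases upstream of an annotated transcription start to 50 downstream. Of the 34 sites, 31 lay upstream of that start, beside 603 of 700 among all introns with a mean of at least 20 spliced reads. These sites are therefore not a sample of the whole class. The 10 with the most 5′ reads are given 5′ to 3′ as 12 exonic and 6 intronic bases followed by the next 12 intronic ones, the first 6 intronic bases in capitals.
FAM193B chr5:177554231-177554260, minus strand: cccggcccgcagGTAGGAgcgagcggggag
EIF5A chr17:7307741-7307770, plus strand: cgttcgcgcgagGTGAGAgcgggcagggcg
GAR1 chr4:109815534-109815563, plus strand: gctcagcgtcagGCAAGTtggcctctctgt
YWHAH chr22:31944809-31944838, plus strand: gctatgaaggcgGTGAGCgcgccgggagcc
UBAP2L chr1:154220964-154220993, plus strand: gaggagactgagGTAAAGttgggagcgcag
WTAP chr6:159727322-159727351, plus strand: ggcgactctcctGTGAGTgggccagaaggc
CYP20A1 chr2:203239123-203239152, plus strand: tacctctatccgGTGAGCgccgtcttggct
RNF32-DT chr7:156640518-156640547, minus strand: gtctagacgcagGTGCGTtcccgtcgaggc
PRMT7 chr16:68311088-68311117, plus strand: ttcccgcggcggGTGAGGcgctgggtatgc
NUTF2 chr16:67846974-67847003, plus strand: ccagcccctcggGTGAGTgtcggggccagc
The name RNF32-DT is that of the gene whose window covered the site. Introns that begin there have no gene name, and the site also lies in RNF32. It falls at the annotated start of RNF32-DT, so the 12 bases before it lie upstream of that start. The intron began with GT at 33 of the 34 sites and with GC at 1, that of GAR1, a protein of the H/ACA snoRNA particles. The letters GTAAG or GTGAG opened the intron at 15 of the 34 sites (44.1%), beside 368 of 700 sites (52.6%) among all introns with a mean of at least 20 spliced reads that begin in such a window. WTAP, a subunit of the RNA methyltransferase complex, had 673 reads at this 5′ boundary and 9 at the 3′ boundary over all libraries. FAM193B had 2727 and 188, the translation factor EIF5A 2141 and 188, and CYP20A1 660 and 5.

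Reads on the 5′ side outnumbered those on the 3′ side in each library taken alone, and no member had more 3′ than 5′ reads in any of the 6 libraries. The median 5′ share of a member's boundary reads lay between 93.0% and 94.3% by library. The ratio of at least 4 was met within the single library by 1867 to 1975 of the 2080 introns. In other introns of similar depth, namely 20326 introns with at least 200 boundary reads and the same mean of spliced reads but neither boundary dominant, the median 5′ share was 46.4% to 46.9%. The mirrored rule, with 3′ reads dominant, found 3363 introns, so that introns with 5′ dominance were the smaller of the lopsided classes. Over all libraries 1250 members had at least 10 times as many 5′ as 3′ reads and 37 had no 3′ read. The median member had 386 summed 5′ reads (interquartile range 262.75 to 703.25) and the highest 20919.

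**Figure D1:**
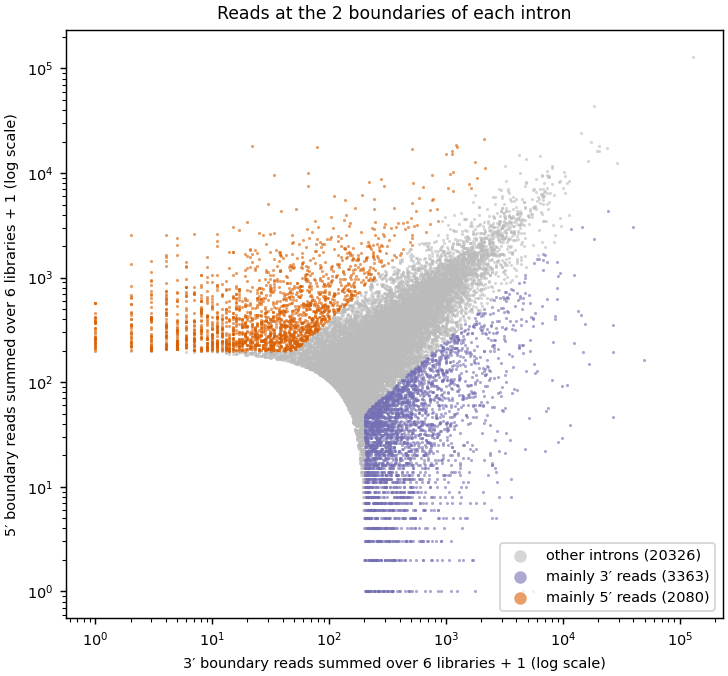
Reads at the 3′ boundary (x) and the 5′ boundary (y) of each intron, summed over 6 libraries, plus 1, on log scales; each point is an intron. The 2080 introns chosen by the rule lie above the diagonal band of the 20326 other introns, and the 3363 introns of the mirrored rule lie below it, with edges set by the rule itself.

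At the limits of the rule, SIK3 (200 reads at the 5′ and 41 at the 3′ boundary) and HYOU1 (200 and 31) were just inside, while VTI1A (199 and 1) and IPO7 (199 and 8) were just outside. For the ratio, PI4KA (a ratio of 4) and SEC62 (4.01) were just inside, and CIZ1 (3.99) just outside. For the mean of spliced reads, SLC8B1 and CAMSAP1-DT (20 each) were inside and ZRANB1 and MALAT1 (19.8 each) outside. The limits cut through a continuous range of values.

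The introns with mainly 5′ reads were long and lay early in their genes. Their median length was 2609.5 nt, against 1288 nt for introns with mainly 3′ reads and 614 nt for the other introns, and 400 of them (19.2%) were longer than 10000 nt, against 8.56% and 1.87%. Length was not used by the rule. The 5′ end of the intron lay at a median of 33.8% of the gene's length from the gene start, against 48.1% and 61.7%. In 633 (31.9%) it lay in the first 10% of the gene's length, against 21.2% and 11.4%, and in 4.78% in the last 10%, against 8.09% and 12.8%. These shares are given without a test, since introns of a gene are not independent of each other and the depth needed to enter each class differed. Place in the gene was not compared at matched length, and an intron that fills much of its gene must begin early in it.

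Coverage inside the intron was often incomplete. The covered fraction, the share of an intron's bases with at least some read as the authors deposited it, had a median of 0.917 over the members, 0.973 over the introns with mainly 3′ reads and 1 over the other introns. The intron was covered along its whole length in 22.4% of the members and 82.9% of the other introns. Coverage was not compared at matched length. A listed alternative 5′ splice site further inside the intron, joined to the same 3′ end, was present for 295 members (14.2%), 13.5% of the introns with mainly 3′ reads and 6.82% of the other introns. The nearest of these lay 89 nt from the member's own 5′ site. Only inner sites with more spliced reads than the member were counted. In 220 of the 295 the excess was at least 50% of the member's 5′ reads. The spliced count of an inner intron can include reads that span the outer one. An excess therefore does not mean that the inner site was used more than the member's own. Reads of transcripts spliced at an inner site can cross the member's own 5′ boundary and then count as unspliced.

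**Figure D2:**
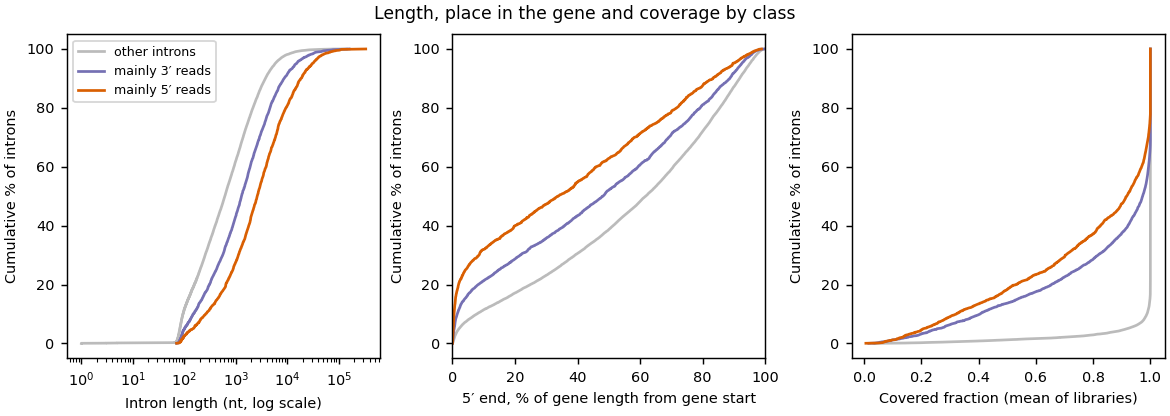
Cumulative share of introns (y, percent) by intron length (left, nt, log scale), by the place of the 5′ end in the gene (middle, percent of gene length) and by covered fraction (right, mean of 6 libraries). Orange stands for introns with mainly 5′ reads, purple for mainly 3′ reads and grey for other introns; the orange curve lies to the right for length (median 2609.5 nt against 614 nt for grey) and to the left for place in the gene (33.8% against 61.7%).

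The same rule gathered introns that were nearly always spliced and introns that were mostly not. The unspliced share at the 5′ boundary, 100 times the 5′ reads over the 5′ reads plus the spliced reads, had a median of 7.28% over the members. It was above 50% in 257 members, between 5% and 50% in 992 and below 5% in 831. The share counts only reads spliced across the whole intron, and leaves out splicing from the same 5′ site to a nearer 3′ end. A high share at a long intron need not be the share of its 5′ site. Counted once per 5′ site, the 225 sites above 50% had a median length of 4633 nt and 47.5 spliced reads per library, and the 809 sites below 5% had 1451 nt and 2109.67 spliced reads. Spliced reads are part of the share itself, and the rule sets a floor of 5′ reads. The contrast in spliced reads therefore follows at least in part from these definitions.

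Ribosomal protein genes supplied the introns with the most 5′ reads. Their 40 members in 30 genes held 15.9% of all 5′ reads of the class, at a median unspliced share of 2.36%. The highest was an intron of RPL13, a protein of the large ribosomal subunit, at chr16:89561369-89561577 on the plus strand (209 nt). It had 3723 and 3777 reads at the 5′ boundary in the control libraries, 2615 and 3271 with sh1, and 4024 and 3509 with sh2, beside 215 to 458 at the 3′ boundary. Its unspliced share was 6.28% ± 0.529 (SD, n = 2) in control, 6.59% ± 0.0571 with sh1 and 6.85% ± 0.221 with sh2, so that the groups lay close together. RPL11 (746 nt, 18619 summed 5′ reads and 1219 3′ reads), RPS27A (16201 and 1135), RPL7A (15091 and 1123) and RPL19 (11052 and 2141) were also among the 12 introns with the most 5′ reads. The RPL37 intron of 205 nt was far more lopsided, with 17765 reads at the 5′ boundary and 77 at the 3′ boundary. Its unspliced share was 3.70%, against 9.75% at an intron of 1897 nt that began at the same 5′ site with the same 5′ reads. RPS13, of the small subunit, had 17051 and 510 at an intron of 1544 nt, with an unspliced share of 13.4% to 14.6% in the 6 libraries. Ribosomal protein genes have many near-identical processed copies in the genome, and reads could be split among them by an aligner whose settings are not given in the sources used here.

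Outside this family, 2 introns of EEF1A1, the elongation factor that brings aminoacyl-tRNA to the ribosome, were among the 12 with the most 5′ reads (15221 and 10242), with unspliced shares of 1.25% and 1.33%. EEF1A1 also has many copies. PI4KAP2, a pseudogene of the lipid kinase PI4KA, had an intron of 483 nt at chr22:21476161-21476643 (minus strand) with 12824 5′ reads, 1775 3′ reads and an unspliced share of 57.0% to 67.2%. Because PI4KAP2 and PI4KA are near-identical, their reads are uncertain.

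ZNF595, a zinc finger gene near the end of chromosome 4, stood at the other extreme of splicing. Its intron at chr4:60154-85730 (plus strand, 25577 nt) had 1840 and 1691 reads at the 5′ boundary in control, 1551 and 1442 with sh1, and 1787 and 1675 with sh2. The 3′ boundary had 6 to 17 reads per library, and spliced reads numbered 71 to 93. The unspliced share was therefore 93.9% to 96.2% in every library, and the covered fraction was 0.734. The intron without a gene name at chr7:26174783-26192494 (minus strand, 17712 nt) began in HNRNPA2B1 and ended in NFE2L3. It had 18030 reads at the 5′ boundary and 21 at the 3′ boundary, with a mean of 28.5 spliced reads and an unspliced share of 98.2% to 99.6%. That share counts only reads spliced across this whole intron, so it is not the unspliced share of the HNRNPA2B1 site. Its 5′ boundary is the downstream end of the exon that follows the HNRNPA2B1 intron at chr7:26192578-26193250. MTHFD2L, a mitochondrial folate enzyme gene, had 5041 and 29 reads at an intron of 14417 nt, and SEPTIN8, a septin cytoskeleton gene, 2822 and 16 at 6281 nt.

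**Figure D3:**
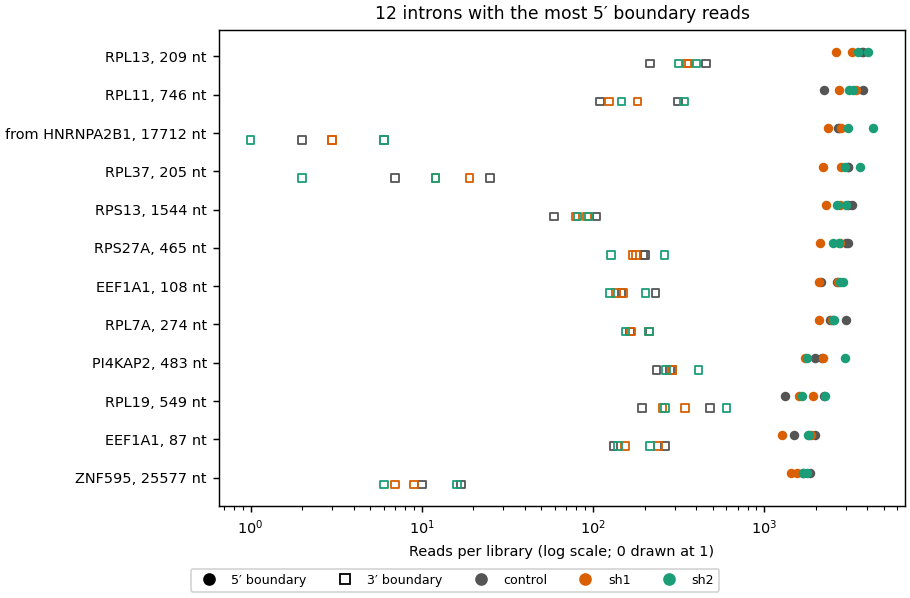
Reads per library (x, log scale, 0 drawn at 1) at the 5′ boundary (filled circles) and the 3′ boundary (open squares) of the 12 introns with the most 5′ reads; colours mark control, sh1 and sh2. Circles lie to the right of squares in every row, by the largest margin for the intron that starts in HNRNPA2B1 (18030 against 21 summed reads), RPL37 (17765 against 77) and ZNF595 (9986 against 65).

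The most lopsided members had no 3′ read at all. ORC4, a subunit of the origin recognition complex, had 72 and 128 reads at the 5′ boundary in control, 113 and 111 with sh1, and 55 and 97 with sh2 at an intron of 38551 nt (chr2:147982082-148020632, minus strand). None of the 6 libraries held a 3′ read, which allows at most 0.521% as many 3′ as 5′ reads by counting error alone. The gene was spliced across this intron with a mean of 727.5 reads per library, and 0.0494 of the intron was covered. IQGAP1, a cytoskeletal scaffold, had 573 5′ reads and no 3′ read (at most 0.524%) at an intron of 35236 nt of which 0.0685 was covered. Its unspliced share was 13.9% and 13.5% in control, 14.1% and 11.8% with sh1, and 24.0% and 20.7% with sh2, without a call. Reads at the 5′ boundary of IQGAP1 were 111 and 99 in control, 76 and 94 with sh1, and 75 and 118 with sh2. Spliced reads were 685 and 632, 462 and 705, and 237 and 451. CDK19, a kinase of the Mediator complex, and TTBK2, a tau-tubulin kinase, had covered fractions of 0.0696 and 0.0658 over introns of 68807 and 41753 nt. Their unspliced shares were higher than that of ORC4, at 53.5% and 72.5% over all libraries, against 11.7%. In these 4 genes the 5′ site lay at 2.31% of the gene's length or less from the start.

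Among the 37 members without a 3′ read, the 10 with the most 5′ reads held 6 more. AATF, an RNA polymerase II-interacting factor, had 423 5′ reads at an intron of 2480 nt, with an unspliced share of 4.75% to 6.41%. BIRC6, a large inhibitor of apoptosis protein, had 461 at 20101 nt and a share of 32.5% to 61.9%. The 2-oxoglutarate dehydrogenase gene OGDH had 383 at 20761 nt, with 3.17% and 5.95% in control, 14% and 7.21% with sh1, and 9.94% and 8.01% with sh2. The 4 knockdown values of OGDH were above both control values, but the difference did not pass the test (log2 difference 1.19, SE 0.498, edgeR adjusted p = 1). PTPRS (410 reads), a receptor tyrosine phosphatase, RPSA2 (571) and LMF1 (380), a lipase maturation factor, made up the rest. In these 6 the 5′ site lay at 0.177% (BIRC6) to 49.8% (PTPRS) of the gene's length from the start. Their covered fractions ran from 0.228 (BIRC6) to 0.613 (RPSA2).

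Genes of RNA processing were looked at as lists. Introns of the class were counted in 10 of the 24 measured genes for cleavage and polyadenylation (13 introns), 7 of 16 of the U1 particle (10), 6 of 22 of transcription elongation (6), 4 of 18 SR proteins and CLK kinases (6) and 8 of 20 hnRNP and other splicing repressors (17). They formed 3.86%, 7.52%, 1.80%, 3.64% and 7.56% of the listed introns with a mean of at least 20 spliced reads in these genes, against 1.60% over all such introns. Expression was not matched between these genes and all others.

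PCF11, a subunit of the cleavage complex that itself has a known intronic polyadenylation site, carried the highest unspliced share of these lists. At its intron at chr11:83157632-83161326 (plus strand, 3695 nt, 1.65% into the gene) the 5′ boundary had 592 and 642 reads in control, 707 and 575 with sh1, and 835 and 575 with sh2. The 3′ boundary had 11 to 37 and spliced reads numbered 165 to 258. The unspliced share was 69.6% and 79.6% in control, 78.6% and 72.1% with sh1, and 79.3% and 73.5% with sh2, and the groups overlapped. A further PCF11 intron, 922 nt long, had 405 and 38 reads and a share of 18.1% to 30.9%. Other cleavage genes lay lower. RBBP6, a large cofactor of cleavage, had 423 5′ and 8 3′ reads at an intron of 1934 nt and a share of 17.1% to 32.5%. CPSF4 (674 and 30 reads), CPSF6 (537 and 66; 245 and 5 at its other intron) and PABPN1 (1022 and 61), which are core factors or bind the tail, had shares of 2.16% to 6.63%. SYMPK, the scaffold symplekin, had 2.96% and 3.45% in control, 5.05% and 4.59% with sh1, and 5.49% and 5.87% with sh2 at its intron of 1136 nt, a difference that did not pass the test (log2 0.74, SE 0.527, edgeR adjusted p = 1). Of the recalled genes with intronic polyadenylation, 3 of 18 measured had a member, namely PCF11, RBBP6 and SCAF4.

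Among genes of the U1 particle and its partners, LUC7L3 (317 and 4 reads at an intron of 756 nt), the shared Sm proteins SNRPB (1169 and 160), SNRPG (1373 and 74) and SNRPD1 (301 and 19), and the U1 proteins SNRNP70 (276 and 48) and SNRPA (293 and 33) had shares of 0.444% to 3.93%. In the elongation list, CCNK, the cyclin partner of CDK12 and CDK13, had 569 and 3 reads at an intron of 11146 nt and a share of 13.0% to 18.2%. CCNT2, a cyclin of the elongation factor P-TEFb, had 1228 and 235 reads. Its share was 67.5% and 62.3% in control, 57.0% and 55.8% with sh1, and 62.1% and 61.5% with sh2. Each knockdown value of CCNT2 lay below both control values, without a call. Its spliced reads were 65 and 83 in control, 234 and 159 with sh1, and 179 and 95 with sh2. The other 4 lay lower, with shares over all libraries of 2.18% for SUPT16H and 2.68% for SSRP1, which form the histone chaperone FACT, 4.51% for NELFB, a subunit of a pausing factor, and 5.97% for SUPT6H, an elongation factor.

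The hnRNP genes, which encode nuclear RNA-binding proteins, held 17 members at 15 sites in 8 genes. HNRNPH3 stood out at chr10:68332217-68337198 (plus strand, 4982 nt), with 1768 and 1896 reads at the 5′ boundary in control, 1008 and 1788 with sh1, and 1316 and 1705 with sh2. Its unspliced share varied by less than 2 percentage points, from 31.8% to 33.5%, while spliced reads ranged from 2157 to 3814. HNRNPA2B1 had 4 sites, of 4601, 4343, 2896 and 2177 summed 5′ reads, with shares of 1.19% to 4.11%. RBM39 had 2 sites with 2099 and 1256 5′ reads, and HNRNPA3 had 1 with 2149. In the SR list, the scaffold protein SRRM2 had 2563 and 139 reads and a share of 15.6% to 18.4%. TRA2B, a splicing activator, had 408 and 71 reads at an intron of 12198 nt. Its shares were 26.7% and 10.5% in control, 11.6% and 10.6% with sh1, and 20.5% and 10.8% with sh2. The library from experiment 1 was thus the higher in each group. An inner 5′ site with the same 3′ end lay 11224 nt into this TRA2B intron. The spliced count of that site exceeded the member's 2524 by 28532 over all libraries, and its part in these shares was not tested.

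**Figure D4:**
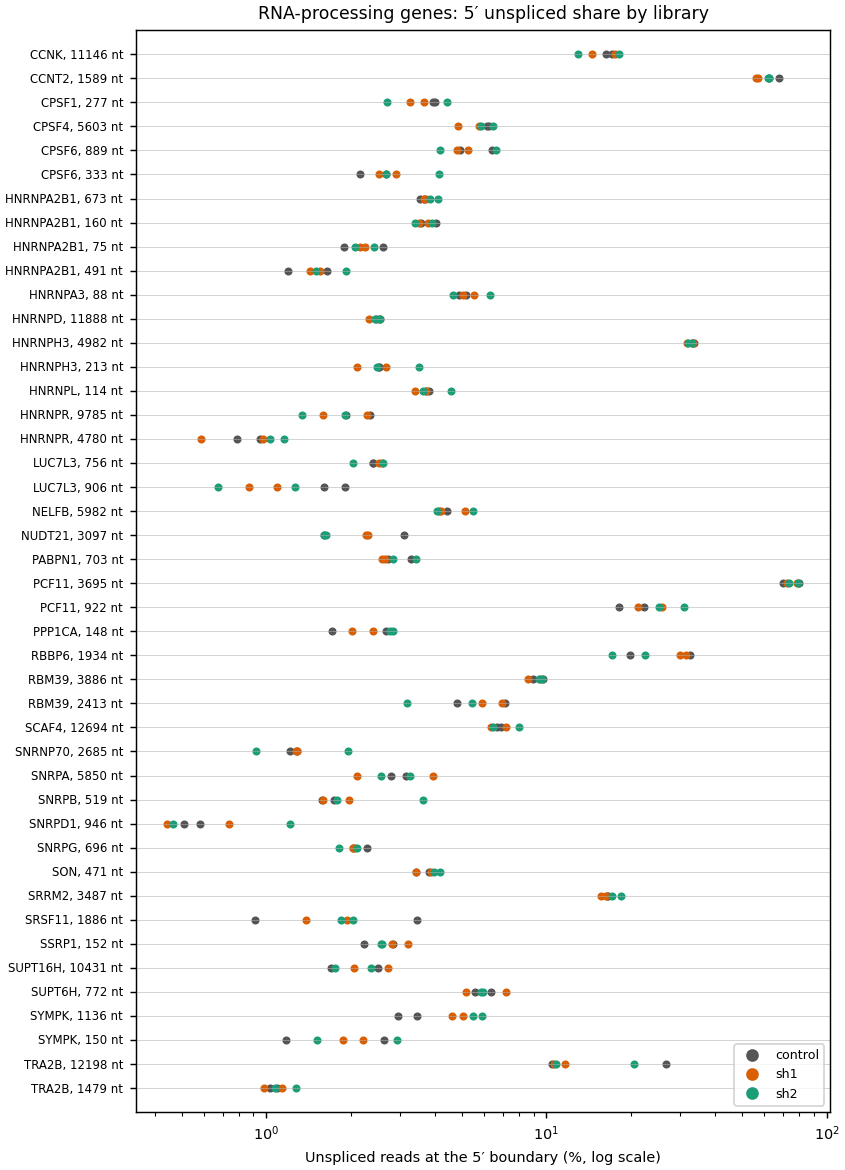
Unspliced share at the 5′ boundary (x, percent, log scale) in the 6 libraries for members in the genes of RNA processing that are reported here, 1 row per 5′ site with the intron length; colours mark control, sh1 and sh2. PCF11 at 69.6% to 79.6% and HNRNPH3 at 31.8% to 33.5% lie to the right, and the 3 groups overlap in both of these rows.

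Several members sat side by side in a gene. UBAP2L, an RNA-binding protein of stress granules, had 7 member sites, the most of any gene, and was singled out after the values were seen. Their summed 5′ reads were 891, 269, 534, 258, 214, 406 and 405 from the first to the last along the gene, beside 68, 18, 18, 27, 10, 71 and 86 at the 3′ boundary. The unspliced share of UBAP2L was 16.9% at the first site, 2.22% to 4.96% at the next 5 and 36.2% at the last. CANX, CHD4, NUSAP1, PSMD2 and UBA2 had 4 sites each, like HNRNPA2B1, and 1331 of the 1596 genes had 1. Introns that hold a snoRNA gene numbered 26 (1.25%), against 0.922% of the introns with mainly 3′ reads and 0.905% of the other introns, and 9 of the 26 were in ribosomal protein genes. In RPL13 the 5′ boundary lies 61 nt from SNORD68. SNHG29, a snoRNA host gene, had 1730 and 57 reads at an intron of 21702 nt. Its unspliced share was 85.6%, counting only reads spliced across that whole intron. A microRNA gene lay in 19 members (0.913%), against 0.565% and 0.290%.

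The knockdown was tested as a change in the ratio of 5′ boundary reads to spliced reads in edgeR's quasi-likelihood model over 132258 introns with Benjamini-Hochberg adjustment at 0.05. All 2080 members passed the filter on low reads, because the rule itself asks for 20 spliced reads. The rule used sums over all 6 libraries, knockdown included, so an intron whose reads rose at the 5′ boundary in the knockdown could enter through that rise, and the counts of members called are a description that is not independent of the rule. With both shRNAs against control, 9 members rose and none fell, and 40 (1.92%) had an unadjusted p under 0.05, against 3.09% of all introns tested. Over all introns tested 0.207% rose and 0.00605% fell, so that the members' share (0.433%) was 9 of 2080. The members' median log2 difference was 0.05, against 0.08 over all introns. With the experiment number as a block, which pairs the libraries of a group across the groups, 15 members rose. Without control replicate 1, 5 members were called, 4 of them among the 9; without control replicate 2 there were 4 and without sh2 replicate 1 there were 4, all among the 9. DESeq2 called 4 members, 3 of them among the 9, namely SRPK1, CNIH4 and STX6. With the rule applied to the 2 control libraries alone, at the same mean number of 5′ reads per library, a choice made after seeing the data, 2131 introns were chosen, of which 8 rose. DIAPH3, STX6 and UBE2H did not meet that rule, having 15, 54 and 2 5′ reads in the control libraries, and the other 6 of the 9 did. ZRSR2 was lowered to a similar level in each knockdown library, whereas the summed level of 11 erythroid and BCR-ABL marker genes was 4450 and 5760 CPM of spliced reads in control, 11128 and 5718 with sh1, and 17137 and 8252 with sh2. In bulk RNA, a change in the number of cells of a type and in the RNA per cell cannot be told apart. The part of these markers in the result was not tested.

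The edgeR calls of 3 of the 9 were kept whichever library was left out. SRPK1, the kinase that phosphorylates SR proteins, had an unspliced share of 10.5% and 11.2% in control, 61.4% and 32.9% with sh1, and 52.4% and 40.1% with sh2 at its intron at chr6:35874340-35886723 (minus strand, 12384 nt). Reads at the 5′ boundary were 107 and 189 in control, 631 and 466 with sh1, and 464 and 491 with sh2, and spliced reads were 915 and 1506, 396 and 952, and 422 and 732. Every knockdown library was above both control libraries. The log2 difference in the 5′ to spliced ratio was 2.84 (SE 0.46, edgeR adjusted p = 1.52e-06, between 2.07e-08 and 0.00797 with a library left out). ACTL6A, a subunit of chromatin remodelling complexes, had shares of 3.68% and 3.73% in control, 36.8% and 17.5% with sh1, and 46.4% and 17% with sh2 at chr3:179574468-179576216 (plus strand, 1749 nt). The groups did not overlap, and the library from experiment 1 was the higher within each shRNA. The log2 difference was 3.32 (SE 0.494, edgeR adjusted p = 6.65e-08, 2.3e-09 to 0.00198 with a library left out). DESeq2 did not call ACTL6A (adjusted p = 0.054). CNIH4, a cargo receptor of the early secretory pathway, had 5.11% and 6.17% in control, 34.8% and 19.0% with sh1, and 35.5% and 19.9% with sh2 at chr1:224356994-224360494 (plus strand, 3501 nt), with a log2 difference of 2.60 (SE 0.444, edgeR adjusted p = 8.61e-06, 6.79e-07 to 0.0381 with a library left out).

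The other 6 calls each depended on 1 or more libraries. DIAPH3, an actin-nucleating formin on the recalled list of genes with a U12-type intron, had 8 and 7 reads at the 5′ boundary in control, 129 and 53 with sh1, and 111 and 47 with sh2 at chr13:59833272-59839323 (minus strand, 6052 nt). The unspliced share was 4.12% and 3.76% in control, 45.3% and 20.3% with sh1, and 50% and 23.3% with sh2. The log2 difference was 3.62 (SE 0.754, edgeR adjusted p = 0.00142), and the call was lost without control replicate 1, control replicate 2 or sh2 replicate 1 (adjusted p from 1.46e-04 to 0.213 with a library left out). Of its 355 5′ reads 340 were in the knockdown libraries, through which it met the rule's limit of 200. The DIAPH3 reads lay on the 5′ side in the knockdown too, with 2 to 14 reads at the 3′ boundary per knockdown library. PSMA1, a subunit of the proteasome core, had 18.4% and 16.1% in control, 57.1% and 36.1% with sh1, and 48.5% and 34.8% with sh2 at chr11:14513700-14514389 (minus strand, 690 nt). Its log2 difference was 1.91 (SE 0.423, edgeR adjusted p = 0.00428, lost without either control library or replicate 1 of either shRNA, 4.04e-04 to 0.596). An inner 5′ site with the same 3′ end lay 573 nt into the PSMA1 intron. Its spliced count exceeded the member's 7947 by 9556 over all libraries, and can include the member's own reads. The part of this site in the PSMA1 call was not tested.

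UBE2H, a ubiquitin-conjugating enzyme with high expression in red cell precursors, had 0 and 2 reads at the 5′ boundary in control, 146 and 31 with sh1, and 223 and 14 with sh2, at an intron of 71531 nt (chr7:129880972-129952502, minus strand). It met the rule's limit of 200 5′ reads through the knockdown libraries, which held 414 of its 416. Spliced reads of UBE2H were 122 and 143, 264 and 160, and 480 and 135. The spliced count of an inner 5′ site with the same 3′ end exceeded the member's 1304 by 432 over all libraries. That count can include the member's own reads, and the part of the site was not tested. The ratio of 5′ to spliced reads over the 4 knockdown libraries was 52.8 times that over the control libraries, with an exact 95% interval from 14.3 to 439.8 for counting error alone, and the edgeR adjusted p was 2.97e-04. That call was lost without control replicate 1 or sh2 replicate 1 (adjusted p from 2.55e-05 to 0.173 with a library left out). The libraries with the most UBE2H spliced reads, replicate 1 of sh1 and of sh2, also had the highest summed level of the erythroid markers (11128 and 17137 CPM), and their part in the result was not tested.

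STX6, a syntaxin of vesicle fusion, had 6.32% and 10.6% in control, 40.3% and 31.2% with sh1, and 33.2% and 30.4% with sh2 at chr1:181002701-181005293 (minus strand, 2593 nt), where 550 of its 604 5′ reads were in the knockdown libraries, with a log2 difference of 2.46 (SE 0.602, edgeR adjusted p = 0.0238). TRAPPC2L, of the vesicle tethering complex TRAPP, had 12% and 9.90% in control, 42.3% and 24.1% with sh1, and 38.7% and 23.6% with sh2 at chr16:88858790-88859892 (plus strand, 1103 nt), with a log2 difference of 1.91 (SE 0.492, edgeR adjusted p = 0.048). For STX6 the call was lost in 5 of the 6 fits with a library left out, all but that without sh1 replicate 2 (adjusted p from 0.0115 to 1). For TRAPPC2L it was lost in 4, those without a control library or without replicate 1 of either shRNA (0.00596 to 1). With a filter of 5 mean reads TRAPPC2L was not called (adjusted p = 0.0635). An inner 5′ site with the same 3′ end lay 961 nt into the TRAPPC2L intron. Its spliced count exceeded the member's 3321 by 4963 over all libraries, and can include the member's own reads. The part of this site in the TRAPPC2L call was not tested. The last of the 9 was the intron without a gene name at chr16:29541711-29545178 (minus strand, 3468 nt), whose 5′ site lies in the pseudogene SMG1P2. Its unspliced share was 81.2% and 26.9% in control, 84.1% and 91.0% with sh1, and 85.4% and 91.5% with sh2. There the 5′ reads were similar in all libraries (181 to 334), and 793 spliced reads in control replicate 2, against 27 to 62 in the other 5, set that library apart. Without control replicate 2 the call was lost, as it was without sh2 replicate 2 (log2 difference 2.68, SE 0.614, edgeR adjusted p = 0.00829 with all libraries; log2 difference 0.82 to 4.36 and adjusted p from 3.22e-05 to 1 with a library left out).

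**Figure D5:**
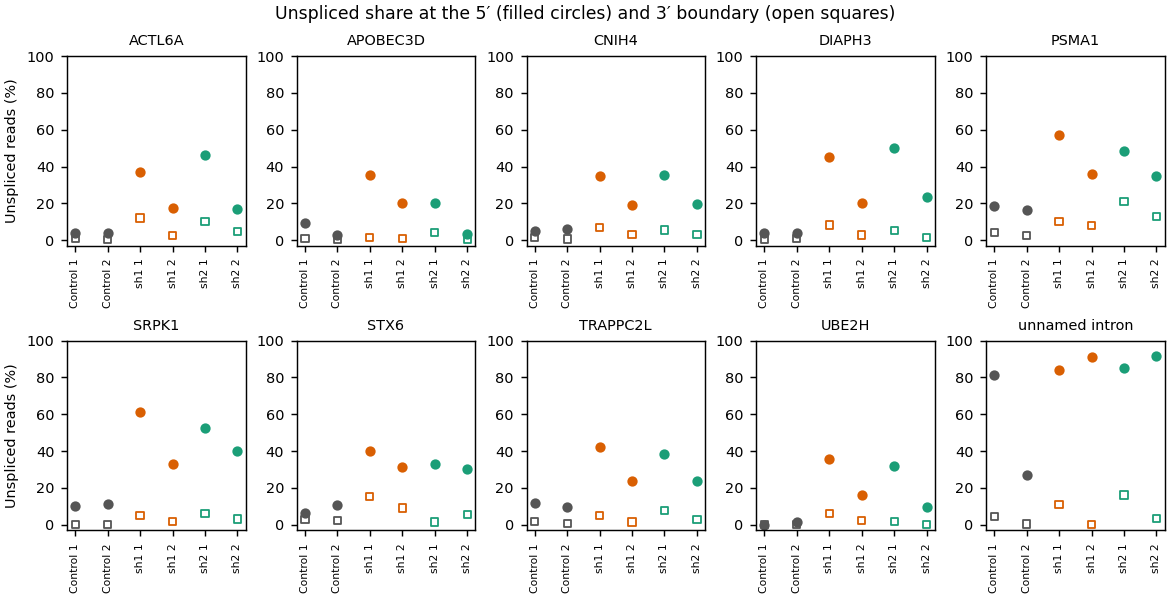
Unspliced share (y, percent) at the 5′ boundary (filled circles) and the 3′ boundary (open squares) in the 6 libraries for the members called in the tests of 5′ boundary against spliced reads. In ACTL6A, CNIH4, DIAPH3, PSMA1, SRPK1, STX6, TRAPPC2L and UBE2H all 4 knockdown circles lie above both control circles; in APOBEC3D and the unnamed intron the groups overlap or 1 control library stands apart.

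In the separate tests 7 members rose with sh1 against control and 5 with sh2, with none lower in either comparison; over all introns 0.167% rose and 0.00378% fell with sh1, and 0.127% rose and 0.00454% fell with sh2. An unadjusted p under 0.05 was found for 28 and 46 members (1.35% and 2.21%, against 2.77% and 2.82% of all introns). The comparisons share the control libraries. ACTL6A, CNIH4, DIAPH3, SRPK1 and UBE2H were called with each shRNA. Their log2 differences were 3.19 and 3.45 for ACTL6A (sh1 and sh2), 2.57 and 2.64 for CNIH4, 3.49 and 3.75 for DIAPH3, and 2.86 and 2.82 for SRPK1. The sh1 test also called PSMA1 (2.06, SE 0.489, edgeR adjusted p = 0.0179) and APOBEC3D, a cytidine deaminase gene (2.79, SE 0.627, edgeR adjusted p = 0.00716). APOBEC3D shares were 9.11% and 2.75% in control, 35.5% and 20.1% with sh1, and 20.1% and 3.29% with sh2. Its call was lost without control replicate 2 or sh1 replicate 1 (adjusted p from 0.00241 to 1 with a library left out), and genes of the APOBEC3 cluster resemble each other. The spliced count of an inner 5′ site of the APOBEC3D intron with the same 3′ end exceeded the member's 3350 by 360. That count, over all libraries, can include the member's own reads, and the part of the site was not tested. With the experiment block the counts were 13 and 11, and with TMM scaling of each kind of read 14 rose and 2 fell with sh2. Over all 132258 introns that scaling gave 297 higher and 17 lower with sh2, against 168 and 6 without it. Without sh1 replicate 1 no member passed in the sh1 test, and without control replicate 2 there were 4; without sh2 replicate 1 none passed in the sh2 test, and without control replicate 2 there were 3. Tested against each other, the shRNAs differed at 0 members by edgeR, and 19 had an unadjusted p under 0.05 (0.913%, against 2.22% of all introns); over all introns 0.00756% were higher with sh1 and 0.00302% lower.

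Whether the lopsided pattern itself moved with the knockdown was tested as the ratio of 5′ to 3′ boundary reads over 38666 introns. No member was called by edgeR in either direction, against 0% higher and 0.0103% lower over all introns, and 180 members (8.65%) had an unadjusted p under 0.05 against 4.41% of all introns. The members' median log2 difference was -0.10, against 0.00 over all. The rule used this ratio in its summed form. Because it asked for few 3′ reads over all libraries, the members with the fewest 3′ reads have wide errors in this ratio. The smallest edgeR adjusted p, 0.203, belonged to NUP107. With a filter of 5 in place of 20 mean reads 13 members passed, 5 higher and 8 lower, and 1 passed with the experiment block and 1 without sh1 replicate 2.

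Reads at the 3′ boundary against spliced reads were tested in the same way over 132246 introns. In this test 7 members rose with both shRNAs, namely SRPK1, ACTL6A, NUP107, TMEM258, PSMA1, CNIH4 and RPS9, and none fell, against 0.237% higher and 0.0121% lower over all introns; 128 members (6.15%) had an unadjusted p under 0.05, against 3.31% of all introns. SRPK1, ACTL6A, PSMA1 and CNIH4 were thus called at both boundaries. NUP107, a nuclear pore scaffold protein, had 7 and 5 reads at the 3′ boundary in control, 63 and 27 with sh1, and 56 and 21 with sh2 at chr12:68689620-68690602 (plus strand, 983 nt). Its 5′ reads were 109 and 152, 122 and 137, and 119 and 91. So the rise was at the 3′ boundary (log2 difference 3.2, SE 0.554, edgeR adjusted p = 9.76e-06), beside 0.35 (SE 0.446, adjusted p = 1) at the 5′ boundary. TMEM258, a subunit of the oligosaccharyltransferase complex, had 10 and 9 reads at the 3′ boundary in control, 38 and 13 with sh1, and 29 and 18 with sh2 at chr11:61789236-61789784 (minus strand, 549 nt), with 7420 and 5450 spliced reads in control and 1729 to 3413 in the knockdown (log2 difference 2.70, SE 0.486, edgeR adjusted p = 2.97e-05).

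RPS9, a protein of the small ribosomal subunit, had 0 and 2 reads at the 3′ boundary in control, 8 and 12 with sh1, and 10 and 6 with sh2, beside 457 to 1477 at the 5′ boundary of its intron at chr19:54201282-54201486 (plus strand, 205 nt). Its ratio of 3′ to spliced reads over the knockdown libraries was 9.89 times that over the control libraries (exact 95% interval 2.55 to 84.8, counting error alone; edgeR adjusted p = 0.00667), and the call was lost in 5 of the 6 fits with a library left out, all but that without sh2 replicate 2 (adjusted p from 0.00403 to 0.864). The call for TMEM258 was lost without control replicate 1 (adjusted p = 0.0798) or sh1 replicate 1 (0.106). Those for SRPK1, ACTL6A, NUP107 and PSMA1 were lost without control replicate 2 (0.111, 0.0948, 0.0709 and 0.901). CNIH4 was lost without control replicate 2 (1), sh1 replicate 1 (0.105) or sh2 replicate 1 (0.059). Without control replicate 2, 2 members were called, 1 of them among the 7, and without sh1 replicate 1 there were 4, all among the 7.

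By list, DIAPH3 was the 1 called among 19 members in 15 of the 37 recalled genes with a U12-type intron, in the test of 5′ boundary against spliced reads with both shRNAs, and it entered the class through its knockdown reads. The files do not mark which intron of a gene is of the U12 type. STK11, a kinase of energy sensing, had 43 and 49 reads at the 5′ boundary of its intron of 11213 nt in control, 84 and 77 with sh1, and 181 and 54 with sh2, without a call. ZNF207, UFD1 and EXOSC2 had 586, 628 and 728 5′ reads. Of 13 measured minor spliceosome genes, CENATAC (289 5′ reads) and SNRNP25 (359) had a member, and neither was called. No member of the 6 RNA-processing lists was called in this test. Over all introns tested 0.207% rose and 0.00605% fell. At that share lists this short can hold no call, and nothing is read from its absence. The median log2 difference ranged from -0.42 in the minor spliceosome list to 0.16 in the U12-type list, against 0.08 over all introns tested. The first of these medians rests on 2 introns and the second on 19.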

How the data were processed

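RNA-seq of polyA-selected RNA was made in K562 cells, per the labels' protocols. The authors deposited 1 table per library with counts, per the file headers, of reads at both boundaries of each intron and of spliced reads, none normalised. The same deposited tables hold a covered fraction per intron and a percent retention, recomputed exactly from the counts and not used further. The aligner, the counting program and the use of strand are not given in the sources used here. Where 2 introns began at the same 5′ site, their 5′ counts were equal in 96930 of 96930 comparisons, and the spliced count of the shorter was never below that of the longer, so spliced counts of inner introns include reads that span outer ones and unspliced shares depend on nesting.

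The submitters' processing notes name hg19, but 93.8% of introns lay inside a RefSeq GRCh38.p14 gene, against 61.9% and 62.2% after shifts of 100 kb, and the first intron bases read GT at 97.1% of the 1250 sites that could be read. Coordinates are printed as the files give them, and names and sequences come from RefSeq GRCh38.p14. The 5′ boundary is the left one on the plus strand and the right one on the minus strand. For each library the counts of a pair of read kinds were fitted with edgeR 4.0.16 (R 4.3.3) in a quasi-likelihood model with a factor for each library and the group's effect on one kind against the other. All introns with a mean of at least 20 reads of the pair entered, with equal library sizes within a library, 3 residual degrees of freedom and Benjamini-Hochberg adjustment at 0.05. A fold change is log2 of the ratio of the read kinds. Standard errors are the log2 difference over the root of F. P-values measure the spread between the 2 libraries of a group, which may be technical. Experiment numbers are from the labels. Same-numbered libraries deviated together (correlations 0.113, 0.229 and 0.224 of deviations from group means over 25769 introns, each over 0.1), so blocked counts are given.

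The rule, the lists and the tests were chosen with earlier results of these data known. Named introns are the 12 with the most 5′ reads, the 10 with the lowest 3′ to 5′ ratio (ties by more 5′ reads), up to 10 called per test, every member in the RNA-processing lists, and the 2 nearest either side of each limit; others were named after their values were seen. Some introns that this rule selects are not reported here, though counts over lists include them. Fits were tested on simulated data. Alternatives were filters of 50 and 5 mean reads, TMM scaling, the replicate block, leaving out each library, DESeq2 1.42.0, other limits of the rule and, chosen after seeing the data, the rule on control libraries alone. Intervals and upper limits cover counting error alone.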

Additional observations from a re-analysis of the deposited data

How the results depend on the processing

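Where 9 members were called at the 5′ boundary with both shRNAs, TMM scaling of each kind of read called 18 (17 higher and 1 lower) and the replicate block 15, both with all 9 among them. DESeq2 called 4, 3 of them among the 9 (38 at an unadjusted p under 0.05, with 296 members given no adjusted p). It ended the calls of ACTL6A (adjusted p = 0.054), DIAPH3 (0.135), PSMA1 (0.21), UBE2H (0.218), TRAPPC2L (0.635) and the unnamed intron (1). A ratio limit of 8 gave 5, and leaving out a library 4 to 10. For sh1 the count of 7 became 17 with TMM scaling, 13 with the replicate block and 0 to 8 with a library left out. For sh2 the count of 5 became 16 (14 higher and 2 lower), 11 and 0 to 7. TMM scaling moved the median log2 difference of all introns with sh2 from 0.13 to 0.02. It also raised the counts over all 132258 introns, from 274 to 375 higher and 8 to 20 lower with both shRNAs. With sh1 they went from 221 to 348 higher and 5 to 8 lower, and with sh2 from 168 to 297 and 6 to 17. Counts over all introns with the replicate block are not reported here. For sh1 against sh2 the count of 0 became 2 with TMM scaling and stayed 0 under the replicate block and without any library. For 5′ against 3′ reads the count of 0 became 1 (lower) with the rule on control libraries alone, 13 with a filter of 5 reads, 1 with the replicate block and 0 to 1 with a library left out. For 3′ against spliced reads the 7 became 2 to 7 with a library left out. The replicate block and TMM scaling ended no call of a named intron in the 28 tests repeated for them, and a filter of 5 reads ended 1, that of TRAPPC2L. The rule gave 3743 introns at a 5′ sum of 100 and 997 at 400. Where a group was left with 1 library, it was assumed to vary like the other groups. Causes of these changes were not tested. Depth limits the 5′ to 3′ ratio, since 37 members had no 3′ read.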
